A study of Homo sapiens with 6 samples.

Results

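Antisense RNA genes are the 290 genes, of 29889 in the read count table, that the authors' table types as antisense and that had a mean of at least 50 counts over the 6 libraries, so they were chosen by their level. The table holds 3213 genes of that type. Of these, 2918 lay below the floor, and 5 above it (SNHG7, SNHG10, SNHG12, SNHG21 and ZFAS1) were set aside because they are hosts of small nucleolar RNAs. The floor used the mean of both groups together, so the level of a member is a description, and the difference between groups played no part in the choice. RNA was sequenced from A549 cells, an established human lung adenocarcinoma line, 48 h after transfection by Lipofectamine 2000. CELF6-OE cells (n = 3 biological replicates) received a plasmid that carries CELF6 (pIRES-hrGFP-1a), and Control cells (n = 3) received the same plasmid without it. Both groups therefore carried the vector and the transfection reagent, and CELF6 came from the transfected plasmid. The comparison asks which genes differ in RNA level when this RNA-binding protein is supplied.

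Antisense RNA genes are transcribed from the strand opposite another gene, starting at a shared promoter region, inside that gene or beyond its end. Most of their RNAs are spliced and polyadenylated but hold no long reading frame, and they are known to act on the gene they overlap, on distant genes, or in no way that has been found. CELF6 belongs to a family of proteins that bind UGU-rich RNA and affect splicing, translation and decay.

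Libraries held 33748328 to 35413404 counts with CELF6-OE, and 36422617 to 37920700 as Control. CELF6 had 18646, 20789 and 11571 counts in CELF6-OE and 0 in each Control library, which is at least 5937-fold higher against a floor of 3 counts per library. All 13 epithelial and A549 markers were above 1 FPKM, the authors' reads per length and depth, at 38.8 to 2200. Of 9 leukocyte markers, 6 were in the table, with CD68 (5.91 FPKM) and CD14 (3.56 FPKM) above 1. Summed leukocyte counts ranged from 430 to 508 with CELF6-OE against 834 to 916 for Control. That difference was that of CD68, a macrophage marker also made by other cells, with 175, 197 and 267 counts against 580, 640 and 685, while CD14 had 310, 230 and 238 against 235, 271 and 225 and overlapped. PTPRC, the defining leukocyte marker, had 0 to 2 counts per library. Summed counts of 6 fibroblast markers were 63 to 81 and 98 to 118, and those of 4 endothelial markers were 3 to 6 and 11 to 19. The part of these differences in the results below was not tested. In bulk RNA, fewer cells that make an RNA and less of it per cell cannot be told apart.

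In CELF6-OE, 15 of the 290 members (5.17%) were called higher and 14 (4.83%) lower. A call needed an adjusted p under 0.05 in edgeR's quasi-likelihood test, adjusted by Benjamini-Hochberg over the 15847 genes with enough counts, and a fold change of at least 1.5. All 290 members entered that test. Over all 15847 genes the same rule called 1.35% higher and 5.82% lower, 7.17% in all, against 10.0% of the members. At the same floor of 50 counts, 1.15% of 12650 genes of any type were higher and 5.38% lower (6.53% in all), and 0.726% of 11701 protein-coding genes were higher and 5.42% lower (6.14% in all). Among 263 lincRNA genes, noncoding RNAs that lie between genes, 10.3% were higher and 4.56% lower (14.8% in all). The share of calls that were lower was thus 48.3% for the members, 30.8% for lincRNAs, 88.2% for protein-coding genes and 81.2% for all genes, and the difference between these shares was not tested. Without CELF6-OE replicate 2, 8 members were called higher and 10 lower.

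**Figure D1:**
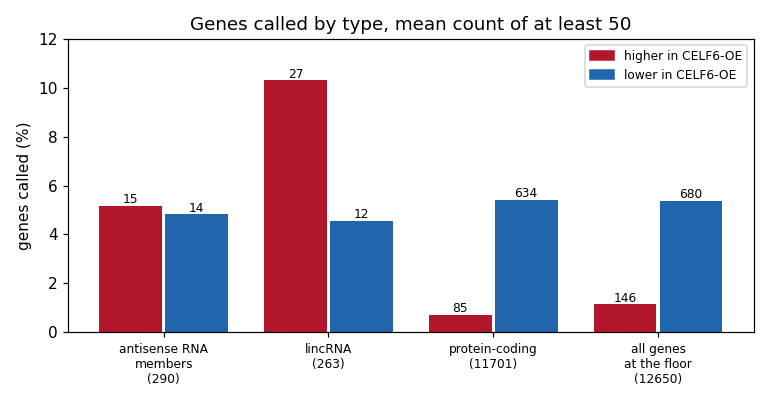
Share of genes called higher (red) or lower (blue) in CELF6-OE for 4 sets of genes with a mean of at least 50 counts. The y axis is the percentage called, the number above each bar is the number of genes called, and the number in brackets is the number tested. The blue bars stand near 5% in every set, and the red bars run from 0.726% for protein-coding genes to 10.3% for lincRNAs.

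Most members moved little. The median log2 fold change was 0.056 for the members, with the middle of the distribution between -0.13 and 0.28, and 0.011 for all genes tested. Of the members, 172 lay above 0 and 118 below it, and the extremes were -1.24 and 1.32. In TMM-scaled counts, 72 members (24.8%) had all 3 CELF6-OE libraries above all 3 Control libraries, against 17.9% of all genes, and 40 (13.8%) had them all below, against 20%. All 29 called members were among these. Together the members took 1944, 1911 and 1904 CPM, which is counts scaled to the library total, in CELF6-OE and 1777, 1777 and 1801 in Control, so the groups did not overlap. After TMM scaling the same sums were 1938, 1868 and 1880 against 1747, 1812 and 1872, and the lowest CELF6-OE library fell below the highest Control library.

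**Figure D2:**
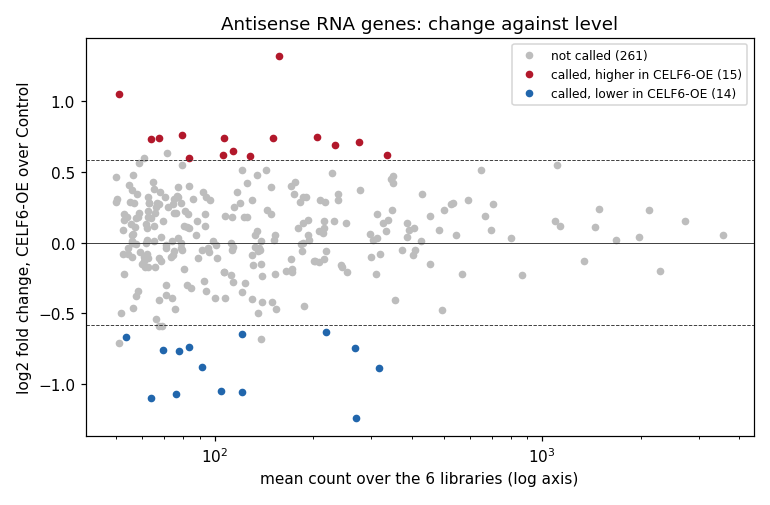
Log2 fold change of CELF6-OE over Control (y axis) against the mean count over the 6 libraries (x axis, log axis) for the 290 antisense RNA genes. Each point is 1 gene, red and blue points are called, and dashed lines mark a fold change of 1.5 in either direction. The 29 called genes lie among the weakly and moderately expressed members, and the members with the most counts are grey.

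Short stretches of 4 members show the letters that this protein family is known to bind, with UGU in capitals. They are the 30-base windows with the most UGU in the longest GENCODE v44 transcript of the 2 members matched to that annotation that rose most and the 2 that fell most, written 5′ to 3′. DLEU2 and RP11-613M10.6 rose, and ENSG00000227619.1 and RP11-49I11.1 fell.
DLEU2, bases 2307 to 2336: cUGUaccuuUGUGUGUGUGUauaUGUGUGU
RP11-613M10.6, bases 176 to 205: ugaccuggagggaauuUGUGUcccagcUGU
ENSG00000227619.1, bases 142 to 171: cagaacUGUgagcaaauaagUGUcUGUUGU
RP11-49I11.1, bases 20 to 49: ccagucucucggaauccgcagccuaggUGU
The DLEU2 window holds 9 overlapping UGU and that of RP11-49I11.1 holds 1. Their transcripts are 3166 and 620 bases long, and a longer transcript offers more windows to choose from. In RP11-49I11.1 other windows also hold 1, and the first is printed. Over the whole transcript, however, DLEU2 had 16.7 UGU per kb and ENSG00000227619.1, which moved the other way, had 16.9. RP11-613M10.6, which rose, had 24.2 and RP11-49I11.1, which fell, had 9.68. The 13 higher members with a v44 transcript had a median of 16.7 UGU per kb, the 13 lower members 15.9, the 251 members not called 16.3 and all 15667 genes tested that have such a transcript 18.3. The quartiles of these groups overlapped, and a match of these letters is a description and no binding site.

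DLEU2 rose most. It is a spliced RNA from a region of chromosome 13 that is often lost in chronic lymphocytic leukaemia, and it hosts a microRNA cluster. DLEU2 (ENSG00000231607.8, GRCh38 chr13:49956670-50125720, minus strand) had 253, 221 and 191 counts in the CELF6-OE libraries and 116, 99 and 65 in the Control libraries. The lowest CELF6-OE library was well above the highest Control library, and the level was 1.30 ± 0.167 FPKM against 0.513 ± 0.152 (SD, n = 3 each). The log2 fold change was 1.32 ± 0.19 (SE, adjusted p = 0.000797). TRIM13, a ubiquitin ligase gene that lies inside DLEU2 on the other strand, differed by 0.20 (adjusted p = 0.165). Of the other genes that share this locus, DLEU1 had 555, 524 and 449 counts against 365, 394 and 376 (log2 fold change 0.50, adjusted p = 0.0058) and SPRYD7 differed by 0.32 (adjusted p = 0.0485), both below the fold limit. RP11-34F20.7, which starts just beyond the start of DLEU2 on the plus strand, was the only gene called within 100 kb of it, with 15, 18 and 14 counts against 7, 5 and 7 (1.36 ± 0.35, adjusted p = 0.0209). At so few counts the adjusted p was 0.103 in DESeq2 and 0.0629 to 0.102 without CELF6-OE replicate 1 or 2 or Control replicate 2.

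HOTAIRM1 and KCNQ1OT1 are members whose action on neighbouring genes has been studied. HOTAIRM1 (ENSG00000233429.9, chr7:27095647-27100265, plus strand) lies in the HOXA cluster of homeobox genes and is known for a role in myeloid differentiation. It had 279, 284 and 279 counts in the CELF6-OE libraries and 190, 185 and 176 in the Control libraries, with little spread in either group. Its level was 6.72 ± 0.116 FPKM against 4.10 ± 0.241, a log2 fold change of 0.69 ± 0.10 (adjusted p = 0.00113). Of the other genes of the cluster, HOXA2, which encodes a homeobox transcription factor, differed by 0.45 (adjusted p = 0.0935), HOXA3 by 0.23 (adjusted p = 0.0663) and HOXA-AS2, another antisense member, by 0.06.

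KCNQ1OT1 (ENSG00000269821.1, chr11:2597308-2700003, minus strand) is an imprinted RNA from inside KCNQ1 that is known to silence genes around it on the paternal chromosome. It had 127, 133 and 134 counts in the CELF6-OE libraries and 89, 85 and 74 in the Control libraries, and all CELF6-OE libraries were higher (log2 fold change 0.74 ± 0.14, adjusted p = 0.00432). Because its transcript is 91667 bases long, these counts amount to only 0.0317 FPKM, the lowest level of any member. SLC22A18, an imprinted transporter gene of the same domain, had 486, 406 and 540 counts in the CELF6-OE libraries and 794, 760 and 778 in the Control libraries. SLC22A18 was thus called lower (log2 fold change -0.63, adjusted p = 0.00369), although without CELF6-OE replicate 2 its value of -0.50 was below the fold limit. PHLDA2, also imprinted there, differed by 0.35 (adjusted p = 0.0167), and CDKN1C, with 12 to 37 counts per library, by -0.55 (adjusted p = 0.30). KCNQ1 itself had too few counts to be tested. These neighbours were chosen after the values of the members had been seen.

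The other 12 members that rose had log2 fold changes of 0.60 to 1.05. AC133528.2, not matched in GENCODE v44, had 68, 62 and 73 counts against 30, 31 and 42 (1.05 ± 0.21, adjusted p = 0.00549), so its lowest CELF6-OE library was far above its highest Control library. RP11-792A8.4, the most strongly expressed by length of those that rose, had 356, 346 and 303 counts against 217, 214 and 215 and a level of 16.6 against 9.94 FPKM (0.71 ± 0.10, adjusted p = 0.000907). DGUOK-AS1, which runs into the end of the mitochondrial deoxyguanosine kinase gene, had 197, 209 and 148 counts against 104, 119 and 124 (0.74 ± 0.15, adjusted p = 0.00655). These 3 members did not overlap between groups and were called under all 16 alternative fits.

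PSMA3-AS1 and HNRNPU-AS1 are named after a proteasome subunit gene and a nuclear RNA-binding protein gene beside them. PSMA3-AS1 had 398, 436 and 359 counts against 280, 296 and 238 (0.62 ± 0.11, adjusted p = 0.00289). HNRNPU-AS1 had 150, 152 and 152 counts against 96, 112 and 105 (0.61 ± 0.13, adjusted p = 0.00868). Both lay just over the fold limit, and both fell below it without single libraries, PSMA3-AS1 without CELF6-OE replicate 2 (0.57) or Control replicate 3 (0.55), and HNRNPU-AS1 without CELF6-OE replicate 3 (0.58) or Control replicate 1 (0.54). PSMA3-AS1 also overlaps a protein-coding gene, ARMH4, on its own strand. FOXD2-AS1, an RNA often raised in tumours, had 145, 146 and 117 counts against 83, 73 and 117. A library of each group held the same raw count, and the groups separated only after scaling (0.65 ± 0.19, adjusted p = 0.0343). The call was lost without CELF6-OE replicate 1 or 2 or Control replicate 2 (adjusted p = 0.119, 0.118 and 0.152), and the fold fell to 0.58 without Control replicate 1.

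RP11-783K16.5 is PPP1R14B-AS1 in GENCODE v44 and overlaps the start of PPP1R14B, which encodes an inhibitor of protein phosphatase 1. It had 287, 279 and 193 counts against 137, 149 and 188 (0.75 ± 0.17, adjusted p = 0.0117), so that CELF6-OE replicate 3 lay close to Control replicate 3. Without CELF6-OE replicate 1 or 2 or Control replicate 2 the adjusted p was 0.0593 to 0.0602. RP11-613M10.6 had 88, 118 and 89 counts against 60, 61 and 62 (0.76 ± 0.16, adjusted p = 0.00951), and 0.0527 without CELF6-OE replicate 2.

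The remaining 4 that rose also had calls that depended on single libraries. RP11-481J2.3 lies inside GINS3, a gene of DNA replication, and had 96, 82 and 70 counts against 54, 45 and 57 (0.74 ± 0.19, adjusted p = 0.0196). RP11-157P1.4 lies inside ADRM1, which encodes a ubiquitin receptor of the proteasome, and had 93, 72 and 69 counts against 43, 58 and 47 (0.73 ± 0.20, adjusted p = 0.0258). CKMT2-AS1, which spans a mitochondrial creatine kinase gene, had 105, 134 and 139 counts against 96, 76 and 86 (0.62 ± 0.16, adjusted p = 0.0237). In these 3 the groups did not overlap, with the narrowest gap in CKMT2-AS1. RP11-884K10.7, inside the cytokine receptor gene IL17RB, had 104, 92 and 100 counts against 80, 63 and 62 (0.60 ± 0.17, adjusted p = 0.0283). Leaving out single libraries ended each of these calls. RP11-157P1.4 lost it without CELF6-OE replicate 1 (adjusted p = 0.114). RP11-481J2.3 lost it without CELF6-OE replicate 1 or 2 or Control replicate 2 (adjusted p = 0.0558 to 0.0986), and CKMT2-AS1 without CELF6-OE replicate 2 or 3 or Control replicate 2 (adjusted p = 0.0863 to 0.116). RP11-884K10.7 lost it without any single library other than Control replicate 1 (adjusted p = 0.05 to 0.124).

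**Figure D3:**
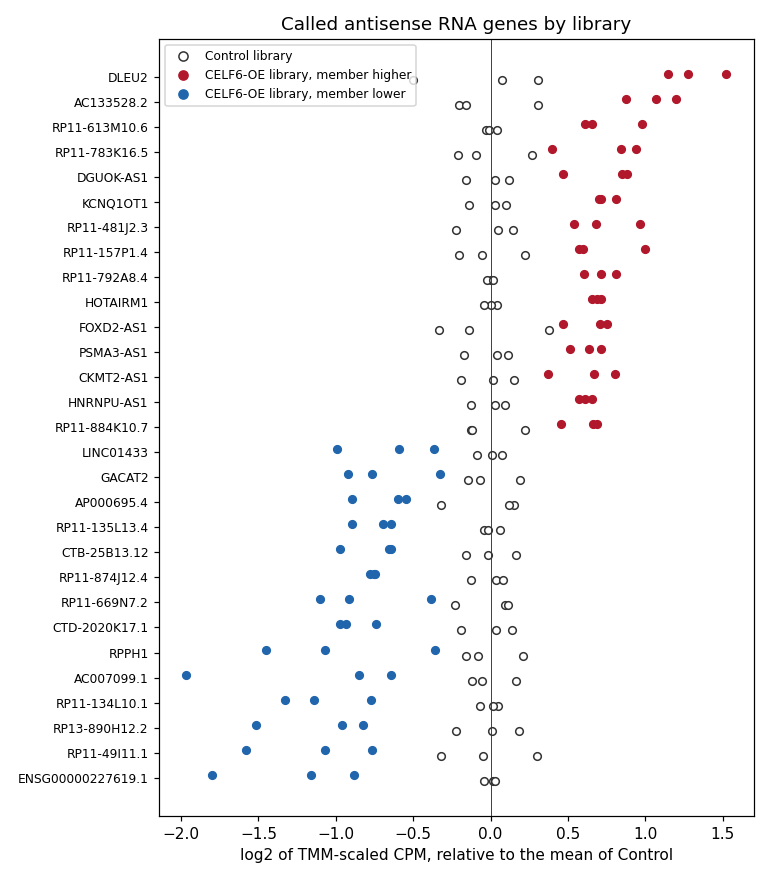
Each called antisense RNA gene (y axis) in every library, as log2 of TMM-scaled CPM relative to the mean of the Control libraries (x axis). Open circles are Control libraries and filled circles CELF6-OE libraries, red for the 15 genes called higher and blue for the 14 called lower. In all 29 genes the filled circles lie on 1 side of the open ones, with the widest spread among CELF6-OE libraries in the genes that fell.

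ENSG00000227619.1 fell most among the 14 members called lower. It lies at chr9:129575117-129584556 on the plus strand with no protein-coding gene opposite it in GENCODE v44. It had 162, 108 and 193 counts in the CELF6-OE libraries and 390, 375 and 387 in the Control libraries, with every CELF6-OE library below every Control library. The level was 1.75 against 4.03 FPKM, a log2 fold change of -1.24 ± 0.18 (adjusted p = 0.000872). RP11-134L10.1, inside CYREN, a regulator of DNA end joining, had 92, 65 and 70 counts against 173, 170 and 157 (-1.06 ± 0.16, adjusted p = 0.00109), and CYREN itself differed by -0.02. RP11-49I11.1, called COSMOC in GENCODE v44, runs into the end of ELP2, a gene of the Elongator complex, and had 49, 29 and 39 counts against 109, 86 and 70 (-1.10 ± 0.24, adjusted p = 0.00907). ELP2 differed by 0.03. In AC007099.1 (EVA1A-AS), which lies in an autophagy gene, the counts were 75, 36 and 85 against 161, 139 and 130 (-1.05 ± 0.25, adjusted p = 0.0164), and the spread came from CELF6-OE replicate 2, which was the lowest CELF6-OE library in all 4 of these genes.

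Another 5 members fell by less, of which the first 3 kept the call under all 16 alternative fits. CTB-25B13.12, opposite APC2, a relative of the APC tumour suppressor, had 205, 171 and 203 counts against 307, 340 and 378 (-0.75 ± 0.13, adjusted p = 0.00263). APC2 differed by 0.44 and was not called. RP11-135L13.4, not matched in GENCODE v44, had 54, 67 and 61 counts against 104, 112 and 104 (-0.74 ± 0.15, adjusted p = 0.00717). RP11-874J12.4 lies inside DLGAP1, a scaffold gene of synapses that had too few counts to be tested, and had 50, 51 and 49 counts against 82, 92 and 93 (-0.76 ± 0.16, adjusted p = 0.00842). Neither of these overlapped between groups. The exonic overlap of RP11-874J12.4 with DLGAP1, at chr18:3656084-3656113, is printed on the strand of RP11-874J12.4. Reads of both genes can come from this stretch. Only overlaps of at most 30 bases were printed, and other members share longer stretches with their partner.
RP11-874J12.4 over DLGAP1: cttcaactgcagaactcagttttatgacac
LINC01433, with no coding gene opposite it, had 199, 134 and 167 counts against 257, 288 and 270 (-0.63 ± 0.15, adjusted p = 0.0156), but the adjusted p was 0.06 without CELF6-OE replicate 2 and 0.0743 without Control replicate 2. RP11-669N7.2 (TMEM132D-AS1) had 44, 52 and 71 counts against 107, 86 and 107 (-0.77 ± 0.21, adjusted p = 0.0256), and 0.105 and 0.103 without CELF6-OE replicate 1 and 2.

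RPPH1 is the deposited symbol of ENSG00000259001.3 (chr14:20343048-20343685, minus strand), a gene that in GENCODE v44 overlaps the RNA component of RNase P, the enzyme that trims tRNA precursors, on the same strand. The values cannot be divided between them. The libraries captured polyadenylated RNA, and how fully they hold either RNA was not tested. It had 308, 150 and 185 counts in the CELF6-OE libraries and 376, 399 and 479 in the Control libraries, with CELF6-OE replicate 1 closest to Control. The log2 fold change was -0.89 ± 0.22 (adjusted p = 0.0188), and the adjusted p was 0.0511 in DESeq2 and 0.0502 to 0.0705 without CELF6-OE replicate 2 or 3 or Control replicate 2. PARP2, a DNA repair gene that shares its promoter region, differed by 0.11. GACAT2, named for its association with gastric cancer, had 113, 78 and 82 counts against 172, 137 and 142 (-0.65 ± 0.18, adjusted p = 0.0271). Without CELF6-OE replicate 3 or 2 or Control replicate 2 the adjusted p was 0.0566 to 0.114, and without Control replicate 1 the value was -0.55. AP000695.4 (CLDN14-AS1), beside a tight junction gene, had 34, 45 and 41 counts against 54, 75 and 72 (-0.67 ± 0.20, adjusted p = 0.043) and was called in 8 of 16 alternative fits. Its adjusted p was 0.0798 to 0.169 without any single library other than Control replicate 1, and 0.0894 in DESeq2.

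HEXIM2 and FMNL1 were the only partners called in the same direction as a called member, among the 224 pairs of a member and the protein-coding gene opposite it in which both were tested. RP13-890H12.2 (chr17:45168800-45171584) runs into the end of HEXIM2, an inhibitor of the transcription elongation factor P-TEFb. It had 56, 36 and 50 counts in the CELF6-OE libraries and 106, 120 and 89 in the Control libraries (log2 fold change -1.07 ± 0.20, adjusted p = 0.00462), and HEXIM2 had 596, 504 and 636 against 861, 1002 and 1019 (-0.65 ± 0.11, adjusted p = 0.00263). CTD-2020K17.1 (FMNL1-DT, chr17:45190931-45222274) starts at the same promoter region as FMNL1, a formin that assembles actin filaments. It had 58, 62 and 67 counts against 106, 134 and 122 (-0.88 ± 0.16, adjusted p = 0.00344), and FMNL1 had 1477, 1468 and 1524 against 2253, 2468 and 2699 (-0.66 ± 0.08, adjusted p = 0.000276). None of the 4 genes overlapped between groups. Both members overlap their partner in position, on the other strand. Whether the counting used strand is not given, so reads of member and partner may not be separable there. Without CELF6-OE replicate 2 HEXIM2 fell short of the fold limit (-0.55), and without Control replicate 3 FMNL1 did (-0.58), so either library left 1 such pair.

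These pairs are neighbours, 19.3 kb apart on chromosome 17. Of the 12 tested genes there, within 100 kb and counting the 2 members themselves, 5 were called lower and 0 higher. Over all genes, 5.82% were called lower. The 5 include the members and their partners HEXIM2 and FMNL1, through which the place was picked after the values had been seen. The only other called gene was ACBD4, an acyl-CoA-binding protein gene, with 659, 622 and 666 counts against 939, 1044 and 1097 (-0.59, adjusted p = 0.00115). Its value lay at the fold limit and passed under it without CELF6-OE replicate 2 (-0.54), Control replicate 2 (-0.58) or Control replicate 3 (-0.53), and with 2 other scalings (-0.55 and -0.57). HEXIM1, the paralog of HEXIM2, differed by -0.27 (adjusted p = 0.0191), and MAP3K14-AS1, another antisense member there, by -0.59 (adjusted p = 0.0524). Over all members with a position, 5 of 26 called ones (19.2%) and 70 of 251 others (27.9%) had another called gene within 100 kb. The called ones had fewer tested genes in that window, a median of 3.5 against 5.0, so the shares are not directly comparable. The called members with such a neighbour were the pair on chromosome 17, DLEU2, RP11-134L10.1 and CTB-25B13.12. TMEM140, near RP11-134L10.1, was called lower as well, and CTB-25B13.5, near CTB-25B13.12, was called the other way.

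In the other 14 of the 16 pairs with a called member the partner was not called. Its log2 fold change lay between -0.11 for PSMA3 and 0.44 for APC2. No pair was called in opposite directions. Of the 222 distinct partners, 8 (3.6%) were called, 1 higher (0.45%) and 7 lower (3.15%), beside 7.17% of all genes, and the difference was not tested. Over the 224 pairs, members and partners had the same sign in 109, with a Pearson correlation of 0.08 and a Spearman correlation of 0.06. Partners were chosen by the longest overlap, so a coding gene that starts beside a member can lie outside these pairs. Pairs share their 6 libraries, and genes are not replicates.

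**Figure D4:**
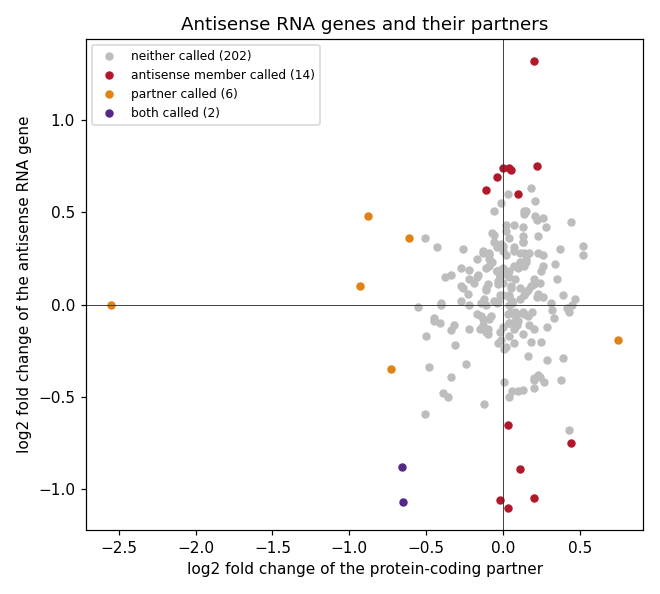
Log2 fold change of each antisense RNA gene (y axis) against that of the protein-coding gene opposite it (x axis) for the 224 pairs with both tested. Colours mark pairs with neither, only the antisense gene, only the partner, or both called. The 2 purple points at the lower left are the pairs with HEXIM2 and FMNL1, and the red points lie near 0 on the x axis.

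The other 6 called partners changed while the antisense gene was not called. CARD14, a signalling scaffold of keratinocytes, had 2, 3 and 2 counts in the CELF6-OE libraries and 14, 17 and 14 in the Control libraries (-2.55, adjusted p = 0.00224), whereas RP11-334C17.5 inside it had 51, 63 and 67 against 59, 72 and 59. Here the antisense RNA held 713% of the counts of its partner. TMCC1, which encodes a membrane protein of the endoplasmic reticulum, had 897, 714 and 1066 counts against 1952, 1862 and 1586 (-0.93, adjusted p = 0.00101), and TMCC1-AS1 had 225, 209 and 220 against 198, 235 and 208 (0.10, adjusted p = 0.572). LPP, a gene of cell adhesion sites, was the only partner called higher, with 722, 810 and 681 counts against 548, 438 and 399 (0.75, adjusted p = 0.00119). Its antisense gene LPP-AS2 differed by -0.19 (adjusted p = 0.496). In all these partners the groups were separate, while the antisense counts overlapped. SMIM14 (-0.88) and NAPA (-0.61), a gene of vesicle fusion, were lower with UGDH-AS1 at 0.48 (adjusted p = 0.0892) and NAPA-AS1 at 0.36 (adjusted p = 0.261). NAPA fell under the fold limit without CELF6-OE replicate 2 (-0.54) or Control replicate 3 (-0.57) and by library size alone (-0.57). Leaving out CELF6-OE replicate 3 gave 2 partners called higher and leaving out Control replicate 1 gave 3.

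ERAP2, which trims peptides for presentation and responds to interferon, was the only partner from a list of 112 interferon-related genes. It had 91, 120 and 117 counts against 224, 189 and 160 (-0.73 ± 0.16, adjusted p = 0.0101), and the adjusted p was 0.0528 without CELF6-OE replicate 1. Its antisense gene CTD-2260A17.2, which spans it, had 97, 91 and 122 counts against 127, 151 and 138 (-0.35 ± 0.16, adjusted p = 0.157).

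Position relative to the partner varied among the 277 members found in GENCODE v44. The commonest arrangement was an overlap of the 5′ ends of member and partner, with a median of 771 bases between the starts and no upper limit. It held 93 members, of which 2 were called higher and 3 lower (5.38% called). Of 62 members that meet their partner end to end, 2 rose and 3 fell (8.06%), and of 61 that lie inside it, 5 rose and 5 fell (16.4%). Among 25 that span the partner 2 rose, and of 14 with no coding gene opposite 2 rose and 2 fell. None of 22 that start near the partner and run away from it was called. That class holds only members that overlap no coding gene on the other strand. These shares stand beside 7.17% of all genes and rest on few calls each. The library kit kept the strand, but whether the counting used it is not given in the sources used here. If it did not, reads of a member and its partner cannot be told apart where exons overlap, as they did in 173 of the 224 pairs. The member held a median of 15.9% of the counts of its partner, and 32 held more.

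RP5-940J5.9 shows the extreme of that overlap. It lies inside GAPDH, a glycolysis gene, with 422 exonic bases in common, and had 1243, 1121 and 1076 counts in the CELF6-OE libraries and 1158, 1182 and 998 in the Control libraries. That is 0.291% of the counts of GAPDH. The groups overlapped, at 75 ± 5.32 against 67.8 ± 6.84 FPKM (log2 fold change 0.12, adjusted p = 0.372), and GAPDH differed by -0.19 (adjusted p = 0.127).

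The members spanned 0.0317 to 180 FPKM with a median of 1.76, against 5.69 for protein-coding genes at the same floor, and 21 members exceeded 10 FPKM. RP4-614O4.11 was the most abundant by length, at 185 ± 7.09 against 174 ± 9.73 FPKM (0.05, adjusted p = 0.652), and GENCODE v44 lists it as protein-coding, as it does TUG1 and 6 other members. Next came RP5-940J5.9, RP11-282O18.3 (56.8 against 50.1 FPKM, 0.15, adjusted p = 0.123), RNASEH1-AS1 (35.8 against 29.7 FPKM, 0.24, adjusted p = 0.071) and PITPNA-AS1. PITPNA-AS1, at the end of a phosphatidylinositol transfer protein gene, was the only of these 5 past the test, with 790, 795 and 657 counts against 521, 551 and 581. All CELF6-OE libraries were higher, at 38 ± 3.21 against 26.1 ± 0.947 FPKM, but the log2 fold change of 0.51 (adjusted p = 0.00346) was below the fold limit.

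Of the 8 most abundant RNAs on the list of 40 much studied ones, HOTAIRM1 was the only called member. TUG1, first described in the retina, had 1420, 1533 and 1452 counts against 1577, 1438 and 1277, and the groups overlapped (6.97 ± 0.212 against 6.34 ± 0.797 FPKM, 0.11, adjusted p = 0.363). VPS9D1-AS1, an RNA raised in several cancers, was at 17.7 ± 0.742 against 15.6 ± 2.64 FPKM (0.15, adjusted p = 0.401). SBF2-AS1, another RNA studied in lung cancer, had 312, 302 and 303 counts against 245, 254 and 246, without overlap and with an adjusted p of 0.0247 at a log2 fold change of 0.37. ARRDC1-AS1, TMPO-AS1, THAP9-AS1 and MIF-AS1 had log2 fold changes of 0.04 to 0.18 and adjusted p of 0.421 to 0.842.

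**Figure D5:**
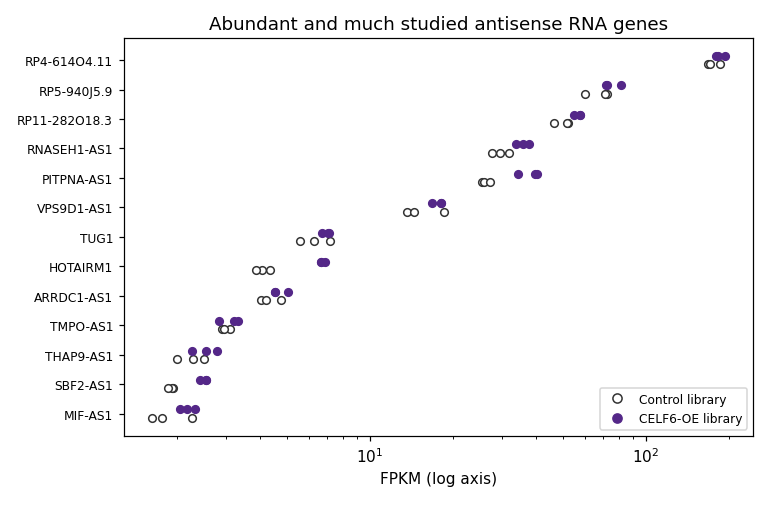
FPKM (x axis, log axis) of the 5 most abundant antisense RNA genes and of 8 much studied ones (y axis) in each library, open circles for Control and filled circles for CELF6-OE. The groups overlap in RP4-614O4.11, TUG1 and TMPO-AS1 and are apart in HOTAIRM1, PITPNA-AS1 and SBF2-AS1.

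Of the 290 members, 45 (15.5%) had an adjusted p under 0.05 at any fold, 27 higher (9.31%) and 18 lower (6.21%), against 6.47% and 11.5% of all genes. The 16 among them that missed the fold limit were 12 higher and 4 lower. NRAV, known as a negative regulator of antiviral responses, had 784, 758 and 716 counts against 630, 681 and 659 (log2 fold change 0.27, adjusted p = 0.0372). LINC01137, which in GENCODE v44 is the divergent transcript of ZC3H12A, an RNase of inflammatory messages, had 400, 395 and 405 counts against 570, 614 and 583 (-0.48, adjusted p = 0.00318). The groups did not overlap in either, and both were picked out after their values had been seen. ZC3H12A itself was also lower (-0.39, adjusted p = 0.00268), below the fold limit as well, while DYNLL1, opposite NRAV, differed by 0.02. At the floor itself, CIRBP-AS1 and RP11-498C9.3 were included with a mean of 50 counts each, while RP11-284F21.7 (49.0) and AC002310.12 (48.83) were not.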

How the data were processed

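The 6 strand-specific libraries were made from captured polyadenylated RNA. Their reads were cleaned with FASTX-Toolkit, placed on GRCh38 by TopHat2 and, where uniquely placed, counted per gene by the authors. Which program and annotation counted them, and whether it used strand, is not given in the sources used here. The deposited read counts are whole numbers without normalization, and the authors' FPKM values are per length and depth and were used for levels only. All 12 value columns were assigned to a library by their labels. The members and lists were chosen with earlier results of these data known.

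Counts of the 15847 genes kept by filterByExpr (minimum count 10) were scaled by TMM and tested with edgeR 4.0.16 (R 4.3.3), quasi-likelihood test with Benjamini-Hochberg adjustment over all of them. The common dispersion of 0.00742 corresponds to 8.62% variation between replicates. On simulated counts for 15684 genes, an adjusted p under 0.05 in the right direction was reached by 88% of 50 genes changed 1.5-fold. The shares were 96% at 2-fold and 100% at 3-fold and 4-fold, and 0.129% of unchanged genes had an adjusted p under 0.05. The fold limit of a call was not applied there, so these are not shares of calls. The changed genes were drawn from genes of any type with a mean of at least 50 counts. They were not matched to the members, whose median was 112 counts, so the shares are not those of the members. The median log2 estimate of the genes changed 1.5-fold was 0.57 in size. DESeq2 1.42.0, limma 3.58.1 (voom), other scalings, filters, thresholds and floors, a replicate block and leaving out each library were alternatives. P-values set the difference between groups against the spread between these cultures, which edgeR moderates with that of the other genes tested. Replicates of a group differed by more than sampling noise (chi-square per degree of freedom 7.67 to 29.3).

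Symbols are those deposited, except for ENSG00000227619.1, given by its gene ID, and CYREN, deposited as C7orf49. Positions, strands, v44 names, partners (the coding gene opposite) and transcripts come from GENCODE v44 (GRCh38), which held 277 of 290 members. The partner is the coding gene on the other strand with the longest overlap. With no overlap, it is the one whose start lies nearest, within 2000 bases. It is thus not always the gene that a member is named after or starts beside, as with SMIM14 for UGDH-AS1. Named genes were the called members (at most 15 per direction), the 5 highest by FPKM, the 8 highest of 40 much studied antisense RNAs, members opposite a gene of the list of 112 interferon-related genes, 2 genes on either side of the floor, the partners of the called and interferon-related ones, and CELF6. Any other was added after its values were seen, as were the loci around DLEU2, HOTAIRM1, KCNQ1OT1 and HEXIM2. Values of 1 gene are not reported here.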

Additional observations from a re-analysis of the deposited data

How the results depend on the processing

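Of 943 values of the named genes under the alternatives, 881 kept their direction and side of the threshold, 47 lost a call and 15 changed sign, none of the latter in a called gene. The 15 higher members became 27 without a fold limit and 2 at a fold of 2, and 8 to 17 without single libraries, 8 being without CELF6-OE replicate 2. The 14 lower ones became 5 at a fold of 2, 7 with a floor of 100 counts and 10 to 18 without single libraries. Partners called higher became 15 without a fold limit, 0 at a fold of 2 and 1 to 3 without single libraries, and partners called lower became 18, 1 and 5 to 8. Pairs called together numbered 1 to 2 without single libraries. The median log2 fold change of the members became 0.096 by library size alone, with 0.049 for all genes, and 0.023 to 0.091 without single libraries. Restricting the members to the 243 that GENCODE v44 lists as lncRNA without same-strand coding overlap, chosen after seeing the data, left 12 higher and 13 lower. Over all genes 1.35% were higher and 5.82% lower. Replicate numbers did not pair the libraries (correlations of same-numbered deviations -0.0113, -0.0212 and -0.0722), and with a replicate block 15 members were higher and 14 lower, at a median of 0.064. By library size alone, DGUOK came to 0.038 and CYREN to 0.015, and DGUOK to 0.016 by upper quartile. Without single libraries DGUOK lay between -0.05 and 0.036, CYREN between -0.079 and 0.0025, RP4-614O4.11 between -0.0038 and 0.12, TMPO-AS1 between -0.016 and 0.11, ADRM1 between -0.042 and 0.15, GINS3 between -0.011 and 0.057, ELP2 between -0.0098 and 0.065 and IL17RB between -0.16 and 0.39. The cause of these shifts was not tested. Genes with 50 to 100 counts have wide errors, and a missed call there does not show an equal level.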
